A study of Mus musculus with 15 samples.

Results

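Weakly open promoters of resting control islets are promoter peaks that carried few reads in mouse islets before any operation. They were taken from the authors' deposited table of genotype before partial pancreatectomy (PPx), as peaks annotated as a promoter within 1 kb of a transcription start site whose mean level in the 4 control libraries was below 3.5. A level is the log2 of normalised ATAC-seq reads in a peak of 601 bp, averaged by the authors over the libraries of a group. The rule gave 714 peaks near 711 genes, out of 5295 promoter peaks within 1 kb and 7826 peaks in all, and the 4581 promoter peaks at 3.5 or above are called the other promoters below. The peaks were chosen by their control level before PPx, so that level is given as a description with no test.

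ATAC-seq uses the Tn5 transposase to cut and tag accessible DNA. It was run on 15 libraries of pancreatic islets from male mice aged 3 months, each made from 40000 islet cells. Every mouse had floxed Arid1a alleles and MIP-rtTA, in which the mouse insulin promoter drives an activator that needs doxycycline, so recombination was aimed at beta cells and not at the other islet cells in a library. Mice drank doxycycline (1 g/L) for 2 weeks. PPx, an operation that removes part of the pancreas and is followed by beta cell proliferation, came 1 week after its withdrawal. The groups were 4 KO-labelled mice (Arid1a floxed, MIP-rtTA and TRE-Cre, in which doxycycline switches on Cre) 6 days after PPx, 4 control mice (without TRE-Cre) 6 days after PPx, 3 KO-labelled mice before PPx and 4 control mice before PPx. The labels give the same doxycycline for all mice.

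A promoter is the stretch of DNA around a gene's start where transcription factors and RNA polymerase assemble, and it is usually kept clear of nucleosomes when the gene is in use. Many mammalian promoters lie in CpG islands, GC-rich stretches that are often open across tissues whatever the gene's output. Arid1a encodes a DNA-binding subunit of SWI/SNF, a complex that slides and evicts nucleosomes and that acts at enhancers and promoters.

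The sequences of 6 promoters that gained in KO-labelled islets after PPx, those of lowest FDR with a RefSeq entry, are shown because the rest of the account turns on such peaks. They are RefSeq sequences on GRCm38 (mm10), from 100 bases before to 50 bases from the annotated start, 5′ to 3′ on the gene's strand. Capitals mark matches, on either strand, to short motifs found by a letter search.
Slc22a23, chr13:34345169-34345318, minus strand: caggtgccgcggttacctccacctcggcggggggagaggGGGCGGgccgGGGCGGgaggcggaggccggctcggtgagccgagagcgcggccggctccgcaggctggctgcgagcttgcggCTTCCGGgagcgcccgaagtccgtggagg
Atp11b, chr3:35753963-35754112, plus strand: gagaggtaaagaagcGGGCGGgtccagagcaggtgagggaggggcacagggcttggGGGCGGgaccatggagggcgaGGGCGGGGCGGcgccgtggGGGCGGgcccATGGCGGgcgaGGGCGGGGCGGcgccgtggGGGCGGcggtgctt
Rpl37a, chr1:72711160-72711309, plus strand: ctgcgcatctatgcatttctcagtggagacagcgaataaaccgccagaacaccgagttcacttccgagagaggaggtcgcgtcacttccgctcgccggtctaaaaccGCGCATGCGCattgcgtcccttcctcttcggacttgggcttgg
Ammecr1, chrX:142966677-142966826, minus strand: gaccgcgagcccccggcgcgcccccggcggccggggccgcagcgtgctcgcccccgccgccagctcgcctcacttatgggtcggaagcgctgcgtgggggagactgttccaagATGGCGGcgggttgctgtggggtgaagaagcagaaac
Tmco1, chr1:167308570-167308719, plus strand: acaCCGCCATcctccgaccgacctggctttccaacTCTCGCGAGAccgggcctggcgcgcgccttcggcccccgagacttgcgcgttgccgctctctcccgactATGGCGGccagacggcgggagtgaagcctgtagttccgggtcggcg
Utp14a, chrX:48256834-48256983, plus strand: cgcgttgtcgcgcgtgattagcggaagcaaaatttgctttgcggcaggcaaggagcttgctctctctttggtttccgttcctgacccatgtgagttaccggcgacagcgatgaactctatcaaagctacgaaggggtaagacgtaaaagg

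The capitals in Slc22a23 are 2 SP/KLF GC boxes (GGGCGG) and 1 ETS motif (CCGGAAG), and in Atp11b they are GC boxes, some of them overlapping, and a YY1 motif (ATGGCGG). Rpl37a holds an NRF1 core (CATGCGC) that matches on both strands at overlapping positions, Ammecr1 a YY1 motif, and Tmco1 YY1 motifs and a ZBTB33 core (TCTCGCG) that also matches on both strands. The printed bases of Utp14a held no match to the 10 motifs searched, which also included the NF-Y box (CCAAT), the CRE core (TGACGT), the E-box (CACGTG), AP-1 (TGANTCA) and the TATA box (TATAAA). Among 32851 RefSeq promoters of 300 bases, the GC box was found in 35.7%, the ETS motif in 8.86%, YY1 in 4.05%, the NRF1 core in 3.91% and the ZBTB33 core in 2.56%. A match describes letters only. RefSeq promoters were matched by symbol to 490 of the 714 weakly open peaks (68.6%) and 3307 of the 4581 other promoters (72.2%); since fewer than 80% matched, a comparison of composition between the sets is void. The matched weakly open promoters had a median GC content of 61.7% and a median observed-to-expected CpG ratio of 0.79, and their peak centres lay a median of 94 bp from the start. The start lay inside the peak at 415 of the 490 (84.7%).

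Before PPx the weakly open promoters had a median level of 3.39 in KO-labelled islets and 3.28 in control islets, or 10.5 and 9.71 normalised reads per peak. Levels ran over -0.24 to 4.43 in KO-labelled islets and over -0.12 to 3.49 in control islets, and 50% of the control levels lay within 3.00 to 3.40. The other promoters had medians of 4.34 in KO-labelled and 4.29 in control islets. Most of the set thus sat close under the threshold, with 537 peaks (75.2%) at 3 to 3.5, 108 at 2 to 3 and 69 (9.66%) under 2. Just inside the threshold were Acaca, Atg4c and Bspry, each at 3.49 in controls, and just outside were Armc8, Bicdl1 and Cdh2, each at 3.5.

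**Figure D1:**
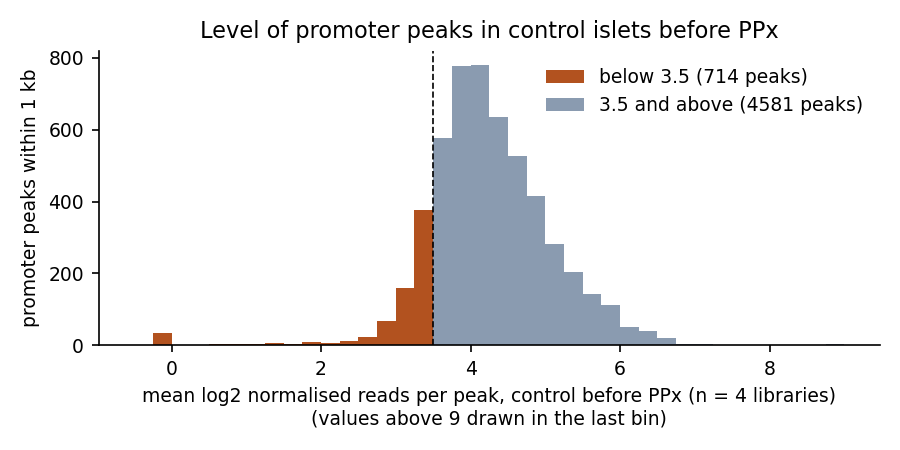
Number of promoter peaks within 1 kb (vertical axis) by their level in control islets before PPx, as mean log2 normalised reads per peak over 4 libraries (horizontal axis, values above 9 drawn in the last bin). The 714 peaks below the dashed line at 3.5 form the low shoulder of a single broad distribution, with a separate small group at the lowest value of -0.12.

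Peak calls were few in the set as a whole. The weakly open promoters were called as peaks in a median of 2 of the 7 libraries before PPx, and 423 of them (59.2%) in exactly 2, the fewest a listed peak could have. The other promoters were called in a median of 6 libraries, with 10.3% in exactly 2. Calls in a single KO-labelled and a single control library were the commonest pattern, found at 250 peaks, and 27 were called in 3 of 3 KO-labelled and 0 of 4 control libraries. The rule asked for a low control level, which by itself favours missing control calls. In the set 156 peaks were called in 0 control and 46 in 0 KO-labelled libraries. Among the other promoters these counts were 72 for control and 129 for KO-labelled libraries. Only 17 (2.38%) were called in all 7 libraries, against 37.3% of the other promoters. Within the set the lowest peaks did not have the fewest calls. Peaks under 2 were called in a mean of 1.87 KO-labelled and 1.86 control libraries. The means were 1.74 KO-labelled and 1.00 control at 2 to 3, and 1.52 KO-labelled and 1.03 control at 3 to 3.5.

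The genes ranged widely in role. RefSeq gave a gene type for 677 of the 714, of which 608 (89.8%) were protein coding and 47 (6.94%) were long non-coding RNA genes. Of the listed promoter peaks of beta cell identity genes, 0 of 10 fell below 3.5. So did 0 of 16 listed promoter peaks of unfolded protein response genes, 0 of 17 of interferon and NF-kB genes, 0 of 13 of proteasome subunits and 0 of 11 of TGF-beta and activin signalling genes. A promoter too weak to be listed is not counted, so a 0 does not show that the promoters of a list were open. Larger shares were found among orphan and adhesion G protein receptors, with 7 of 20 promoter peaks, ERBB-MAPK signalling genes, with 5 of 17, and SWI/SNF subunits, with 2 of 6. Gpr119, a lipid-amide receptor that raises cAMP and insulin secretion in beta cells, was at 3.09 in KO-labelled and 2.76 in control islets. Predicted, Rik, microRNA and small RNA genes gave 123 of their 684 promoter peaks. These shares are descriptions of the level that chose the peaks, read beside 13.5% of all promoter peaks within 1 kb.

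Defining markers were looked up among the peaks before PPx. Of 9 beta cell markers 3 had a promoter peak, at control levels of 3.73 to 4.29, so none was in the set. Alpha and endothelial cell markers had 1 promoter peak each, both above the threshold, and 0 acinar, ductal, leukocyte or Schwann cell markers had any peak. In whole islets, fewer cells of a type with an open promoter and less opening per cell cannot be told apart.

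X-linked promoters, here all promoter peaks placed on the X chromosome, were weakly open in a larger share than those of any autosome. Of 230 X-linked promoter peaks 80 (34.8%) were weakly open, against 632 of 5061 on the autosomes (12.5%), where single chromosomes ran over 7.59% to 19.0%, with chromosome 2 highest. X-linked promoter peaks had median levels of 3.89 in KO-labelled and 3.81 in control islets before PPx, and autosomal ones 4.21 in KO-labelled and 4.20 in control islets. All mice were male. The X-linked members included Araf, a RAF kinase, with 2 peaks at 2.86 and 3.43 in controls, Stag2, a cohesin subunit, at 3.44, Utp14a, a nucleolar factor for ribosomal RNA processing, at 3.44, and Atrx, a chromatin remodeller, at 3.09. Their place on the X was not used by the rule, but their level was, so this share has no test.

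**Figure D2:**
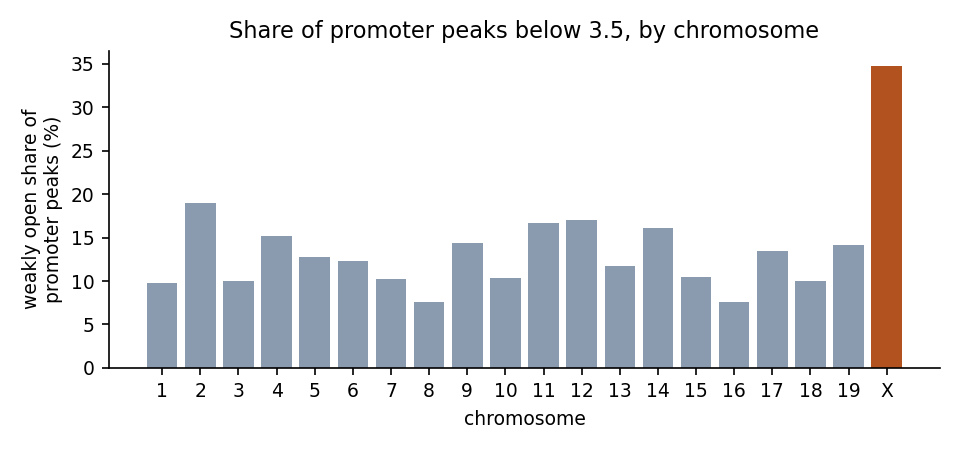
Share of promoter peaks within 1 kb whose control level before PPx was below 3.5 (vertical axis, percent), for each autosome and the X chromosome (horizontal axis). The X bar stands at 34.8% and the highest autosomal bar, chromosome 2, at 19.0%; the Y chromosome, with 4 promoter peaks, is not drawn.

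Peaks under a level of 2 are described by the genes they were assigned to, with no test. Of these 69 peaks, 35 belonged to predicted, Rik, microRNA or small RNA genes, beside 123 of all 714 weakly open promoters and 684 of all 5295 promoter peaks. Zinc finger genes had 7 of the 69, beside 23 of the 714 and 178 of the 5295. Dnah14, Erdr1, Gvin1, Hist1h2ao and Hist1h2ap were among the peaks at -0.12 in control islets, the lowest control level of the table. In KO-labelled islets Dnah14 was at 0.15, and the other 4 were at -0.24, the lowest KO-labelled level. Even so, the replication-dependent H2A histone genes Hist1h2ao and Hist1h2ap were called as peaks in 3 of 3 KO-labelled and 4 of 4 control libraries. A near-empty level beside a call in every library was also found at Zfp97, a zinc finger gene.

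Repeated sequence was counted at these promoters. Of the 27 peaks under 2 with a RefSeq promoter, 24 held at least 1 window of 75 bases, the read length, that recurs exactly in the promoter of another gene, against 14 of 463 peaks at 2 to 3.5 and 15 of 3307 other promoters. Only 39.1% of the peaks under 2 had a RefSeq match, so these counts describe the matched promoters alone and no difference between the sets is drawn from them. Zfp965 and Zfp971, zinc finger genes of 1 family on chromosome 2, are shown as a pair chosen after their values were seen. Capitals mark the 3 positions at which the printed bases differ.
Zfp965, chr2:175469925-175470074, plus strand: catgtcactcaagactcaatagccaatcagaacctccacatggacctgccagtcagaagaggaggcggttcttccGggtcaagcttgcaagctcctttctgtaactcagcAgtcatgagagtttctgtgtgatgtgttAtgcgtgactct
Zfp971, chr2:178023184-178023333, plus strand: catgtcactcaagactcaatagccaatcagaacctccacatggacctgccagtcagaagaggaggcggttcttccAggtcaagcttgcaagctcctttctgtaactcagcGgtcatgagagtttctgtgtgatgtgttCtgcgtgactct

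Over 300 bases the pair differed at 9 positions, an identity of 97%. Zfp965 was at -0.24 in KO-labelled and -0.12 in control islets before PPx, and Zfp971 at 1.66 in KO-labelled and 1.61 in control islets. In Zfp965, 94.7% of its 75-base windows recurred in another promoter, and in Zfp971 17.7%. The sources used here do not say how reads that map to several places were treated, and the part of repeated sequence in these levels was not tested.

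Each weakly open promoter was followed into the other 3 deposited tables wherever a listed peak overlapped it by 1 bp or more. The table of genotype after PPx listed 644, the table of PPx in KO-labelled islets 675, and the table of PPx in control islets 435. All 3 tables listed 410 of them and 17 were in none. Of the other promoters, 99.2%, 99.3% and 96.0% were listed in those tables. Spry4, a feedback inhibitor of receptor tyrosine kinase signalling, was in none of the other 3 tables. A peak had to be called in 2 libraries of a comparison to be listed, so a weak promoter missing from a table has no level there. Levels are compared within a table only, since the sources used here do not give the scaling between tables.

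The label was checked on the targeted gene first. In the authors' deposited tables the single Arid1a peak, in exon 9, was at 5.49 in KO-labelled against 1.21 in control islets before PPx, and at 4.04 in KO-labelled against 0.40 in control islets after PPx (FDR 0.00187 and 0.00201). It was higher under the KO label, and no label says which exon is floxed, so directions below refer to islets labelled KO.

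After PPx the weakly open promoters stood higher in KO-labelled islets, as did most promoters. This comparison shares no library with the rule. Their median level was 3.96 in KO-labelled and 3.29 in control islets, or 15.6 and 9.78 normalised reads, and 616 of 644 (95.7%) had a log2 fold above 0, beside 90.3% of all peaks and 99.1% of the other promoters. Of the 644, 1 was called in 0 KO-labelled and 195 in 0 control libraries, so those 195 were listed through KO-labelled calls alone, and the counts and medians over the 644 partly restate how peaks were listed. By the authors' test 55 of 644 were gained at an FDR of 0.05 or below, which is 8.54%, beside 9.89% of all 13111 peaks of the table and 21.8% of the other promoters listed. None was lost, beside 0.0839% of all peaks. At an unadjusted p under 0.05, 221 (34.3%) were higher, beside 33% of all peaks and 59.1% of the other promoters, and 1 was lower, beside 0.526% of all peaks. The share gained was thus near that of all peaks and was smaller than that of the other promoters.

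The folds themselves were close to those of other promoters. The median log2 fold was 0.69 for the weakly open promoters (middle 50% from 0.42 to 0.91), 0.74 for the other promoters (0.57 to 0.90) and 0.61 over all peaks. The standard error implied by fold and p had a median of 0.42 for the weakly open promoters and 0.35 for the others. Every member with an FDR of 1 in this table, 233 peaks, had a mean level over both groups of 3.5 or less, and 48 of those had an unadjusted p under 0.05. Among peaks with an FDR under 1, 13.4% of the weakly open promoters, 22.2% of the other promoters and 15.1% of all peaks were gained.

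With folds centred on the table's median of 0.61, none of the 55 promoters kept an FDR of 0.05 and 1 weakly open promoter was called lost; over the whole table that setting left 2 peaks gained and 50 lost. The gains are thus gains on the authors' scale, on which the whole table leans towards KO-labelled islets. Whether that lean is a matter of scaling between libraries was not tested, because values per library are not analysed here.

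**Figure D3:**
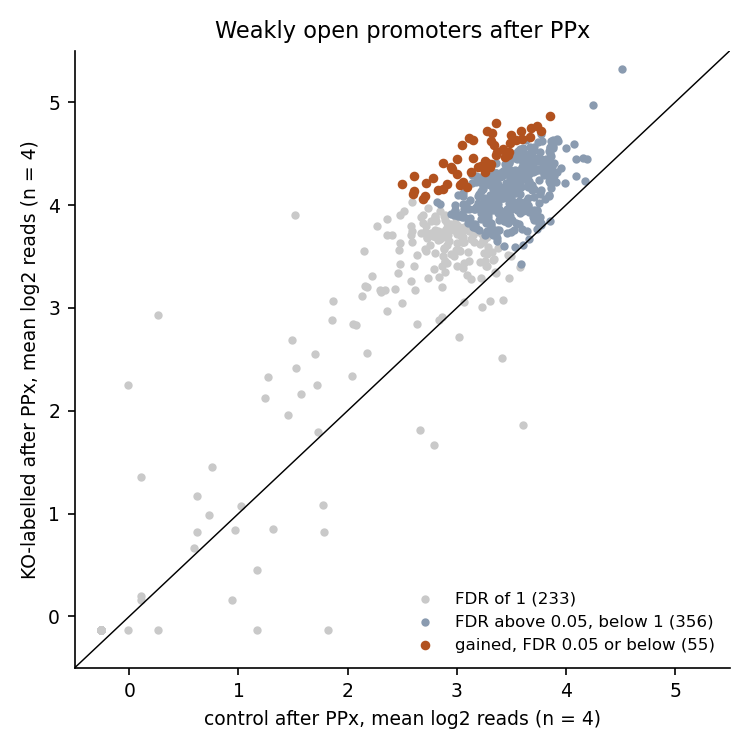
Level of the 644 weakly open promoters listed after PPx, as mean log2 normalised reads in KO-labelled islets (vertical axis, 4 libraries) against control islets (horizontal axis, 4 libraries), with the diagonal marking equal levels. Nearly all points lie above the diagonal; the 55 gained promoters lie at KO-labelled levels of 4.06 to 4.87, and the 233 with an FDR of 1 fill the lower part of the cloud.

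**Figure D4:**
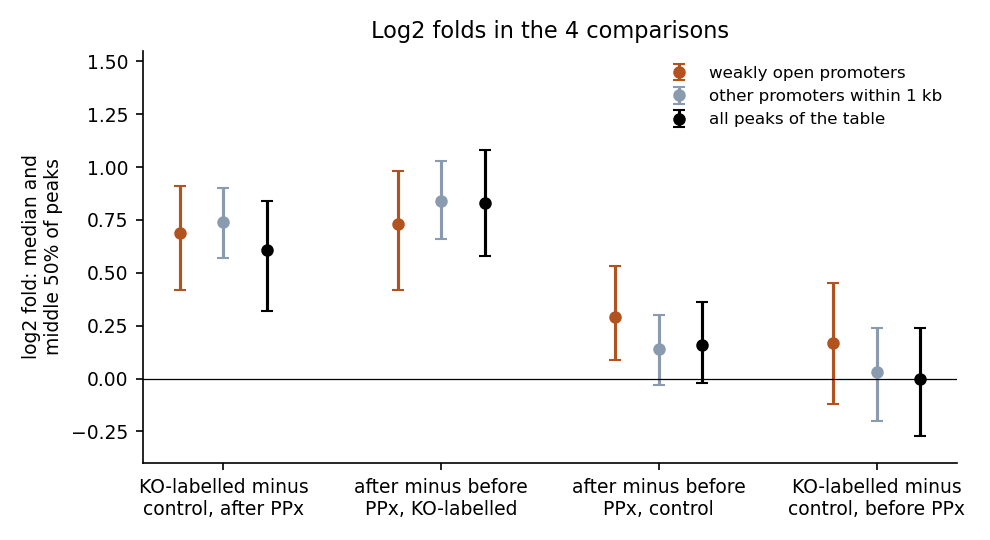
Median log2 fold (points) and middle 50% of folds (bars) on the vertical axis for the weakly open promoters, the other promoters within 1 kb and all peaks of the table, in each of the 4 comparisons (horizontal axis). In islets after PPx and in KO-labelled islets after against before PPx the 3 sets overlap at medians of 0.61 to 0.84; in the comparisons that share the control libraries of the rule the weakly open promoters sit highest.

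Calls fell at the peaks of higher level, but the deposited FDR allowed no other outcome at low levels. No weakly open promoter with a mean level below 3.5 over both groups had an FDR under 1. Of the 63 listed peaks that had been under 2 in resting controls, 0 were gained and all had an FDR of 1. In that class 1 was higher at an unadjusted p under 0.05, and 52 had a fold above 0. The median levels of the 63, -0.13 in KO-labelled and -0.26 in control islets, were the lowest of the table for each group. Their median fold of 0.13 is thus the gap between those lowest levels. Of the 90 listed peaks at 2 to 3, 3 were gained, with a median fold of 0.79, and of the 491 at 3 to 3.5, 52 (10.6%), with a median fold of 0.71. X-linked peaks gave 8 gained of 78 (10.3%) and a median fold of 0.77, and autosomal ones 47 of 564 (8.33%) and 0.68. Among the other promoters the order was the opposite, with 14.7% gained on the X and 22.0% on the autosomes; neither difference was tested.

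The gained promoters are described next by their levels and calls, which come from the libraries that called them gained and are no separate evidence. The 55 had KO-labelled levels of 4.06 to 4.87 and control levels of 2.50 to 3.85, and log2 folds of 0.95 to 1.70 with a median of 1.18. After PPx, 51 of them were called in 3 or 4 of the 4 KO-labelled libraries, while in the 4 control libraries 25 were called in 0 and 44 in 0 or 1. Counts gained per gene list in this comparison are read beside the 9.89% gained of all peaks.

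Dusp4, which encodes a nuclear phosphatase that inactivates MAP kinases, had the lowest FDR of the set. Its promoter peak (mm10, chromosome 8, 34806740 to 34807340) was at 4.80 in KO-labelled and 3.36 in control islets in the authors' deposited table after PPx. The log2 fold there was 1.44 (implied SE 0.35, FDR 0.0187), with calls in 4 of 4 KO-labelled and 0 of 4 control libraries. Of the 5 weakly open peaks of ERBB-MAPK signalling genes, 4 were listed after PPx and 1, Dusp4, was gained. One Araf peak had 1.21 as its log2 fold in the authors' deposited table, at an unadjusted p of 0.0146 and an FDR of 1, and so missed the threshold.

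Genes of insulin, IGF and prolactin signalling gave 3 weakly open promoters, of which 1 was gained. Rictor, the defining subunit of mTOR complex 2, was at 4.49 in KO-labelled and 3.47 in control islets in the authors' deposited table, a log2 fold of 1.02 (implied SE 0.37, FDR 0.0462). Socs2, a feedback inhibitor of cytokine receptors, had 0.76 (FDR 0.0819) as its log2 fold in the authors' deposited table. Jak2, the kinase bound to the prolactin receptor, had 0.95 with an FDR of 1 there. Its mean level lay in the range where every weakly open promoter had an FDR of 1.

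Several of the promoters with the lowest FDRs belong to genes of transport or membrane proteins, a grouping made after their values were seen. Slc22a23, an orphan member of the organic ion transporter family, was at 4.28 in KO-labelled and 2.61 in control islets in the authors' deposited table (log2 fold 1.67, implied SE 0.42, FDR 0.0212), although it was called in 2 KO-labelled libraries only. Atp11b, a phospholipid flippase, was at 4.58 in KO-labelled and 3.05 in control islets in the authors' deposited table (fold 1.53, FDR 0.0212). Tmco1, an endoplasmic reticulum protein that releases calcium when the store is overfull, was at 4.72 in KO-labelled and 3.28 in control islets in the authors' deposited table (fold 1.44, FDR 0.0250). Of the solute carrier list, 1 of 11 listed promoters was gained, Slc22a23.

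Rpl37a and Utp14a, again among the lowest FDRs, encode proteins of ribosomes and of their assembly, a grouping made after their values were seen. Rpl37a, a protein of the large ribosomal subunit, was at 4.63 in KO-labelled and 3.15 in control islets in the authors' deposited table (log2 fold 1.47, implied SE 0.39, FDR 0.0214), with calls in 4 KO-labelled and 0 control libraries. Of 3 weakly open ribosomal protein promoters listed it was the 1 gained; Rpl21 had a fold of 0.94 (FDR 0.0828) and Rpl9 0.41 (FDR 0.426) in the authors' deposited table. Utp14a was at 4.65 in KO-labelled and 3.11 in control islets in the authors' deposited table (fold 1.54, FDR 0.0250). Its retrotransposed copy Utp14b on chromosome 1, named after its value was seen, was gained as well, with 1.04 (FDR 0.0459) as its log2 fold in the authors' deposited table. The annotated start of Utp14b lies outside the peak that chose it, 665 bp from the centre of that peak.

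Ammecr1 and Mospd1, both X-linked, stood at the upper end of the folds once predicted genes were left out. Over all 644 weakly open promoters listed, folds ran from -1.95 to 2.68. Ammecr1 was at 4.41 in KO-labelled and 2.87 in control islets in the authors' deposited table (log2 fold 1.54, implied SE 0.42, FDR 0.0227). Mospd1 was at 3.80 in KO-labelled and 2.27 in control islets in the authors' deposited table, also a fold of 1.54, but its mean level was lower and its FDR was 1 (unadjusted p = 0.00192). Equal folds thus stood on either side of the threshold. Nebl, which encodes the actin-binding protein nebulette, was gained with 1.38 (FDR 0.0265) as its fold in the authors' deposited table, at 4.70 in KO-labelled and 3.32 in control islets.

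Hat1 and Zmynd11, also among the promoters with the lowest FDRs, encode proteins that act on histones, a grouping made after their values were seen. Hat1, which acetylates newly made histone H4, was at 4.26 in KO-labelled and 2.78 in control islets in the authors' deposited table (log2 fold 1.47, implied SE 0.42, FDR 0.0265), with calls in 4 KO-labelled and 0 control libraries. Zmynd11, a reader of methylated histone H3.3, was at 4.37 in KO-labelled and 2.95 in control islets in the authors' deposited table (fold 1.42, FDR 0.0265). Both had control levels under 3 after PPx. Of 4 weakly open histone gene promoters 2 were gained, beside 9.89% of all peaks. They were the linker histone gene H1f4 with a fold of 1.02 (FDR 0.0461) and the histone H4 gene H4c6 with 1.11 (FDR 0.0471) in the authors' deposited table. Hist1h2ao and Hist1h2ap, under 2, had an FDR of 1. The peak that follows H1f4 there lies 239 bp from the peak that chose it, in a cluster of histone genes.

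Neither weakly open SWI/SNF promoter was called. Smarca4, the gene for the BRG1 ATPase that drives the complex, was at 4.07 in KO-labelled and 3.5 in control islets in the authors' deposited table, a log2 fold of 0.57 (FDR 0.203). Phf10, a subunit of the PBAF form, was at 2.12 in KO-labelled and 1.24 in control islets there, with an FDR of 1.

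Cell division genes gave 6 weakly open promoters, of which 1, Stag2, was gained. Stag2 was at 4.09 in KO-labelled and 2.71 in control islets in the authors' deposited table (log2 fold 1.38, implied SE 0.47, FDR 0.0396), but was called in only 1 library of each group. Zw10, a kinetochore protein, had a fold of 0.97 with an FDR of 1 in the authors' deposited table, and Kif11, the motor that separates spindle poles, 0.64 (FDR 0.196). Cdk6, a kinase of the G1 phase, had 0.36 (FDR 0.346) in the authors' deposited table. Bub3, a spindle checkpoint protein, was at 4.11 in KO-labelled and 3.76 in control islets, with 0.34 (FDR 0.407) as its fold in the authors' deposited table. The median fold of the 6 was 0.50, beside 0.61 over all peaks. Rb1, the retinoblastoma gene and the 1 weakly open promoter among cell cycle inhibitors, had 0.64 with an FDR of 1.

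Of the largest list, predicted, Rik, microRNA and small RNA genes, 8 of 113 listed promoters were gained, beside 9.89% of all peaks. DNA repair genes had 0 gained of 3, with folds of 1.01 for Xpa (FDR 1), 0.81 for Trp53bp1 (FDR 0.0950) and 0.52 for Ercc2 (FDR 0.236) in the authors' deposited table. Zinc finger genes had 1 gained of 22, Zfp62, with 1.12 (FDR 0.0412) as its log2 fold in the authors' deposited table, and 13 of the 22 had an FDR of 1. Orphan and adhesion receptors had 1 gained of 5, Gpr19, with 0.95 (FDR 0.0486) as its fold in the authors' deposited table. The Tmem genes had 1 of 5, Tmem131l, with 1.15 (FDR 0.0357) as its fold in the authors' deposited table, from a peak 561 bp away from the one that chose it. Cilium, respiratory chain, mitochondrial ribosome, ion channel, cadherin and Ccdc promoters had 0 gained of 2, 2, 1, 2, 2 and 6 listed, as had Sox4 and Pfkfb1. In those groups the lowest FDR was 0.0620, for Wdr35, a cilium transport gene with a fold of 1.03 in the authors' deposited table.

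Of the 644 promoters listed after PPx, 26 had a fold below 0. Speer4cos was at 1.86 in KO-labelled and 3.61 in control islets after PPx. Its log2 fold in the authors' deposited table was -1.75, with an unadjusted p of 0.00285 and an FDR of 1. It was the 1 weakly open promoter lower at an unadjusted p under 0.05, and its peak after PPx lies 407 bp from the one that chose it. Asmt, a gene for the last step of melatonin synthesis with its peak placed on the X chromosome, was at 1.67 in KO-labelled and 2.79 in control islets. Its fold in the authors' deposited table was -1.12 (unadjusted p = 0.0904, FDR 1).

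PPx within KO-labelled islets asks how the same promoters stood after the operation in the mice labelled KO. Its libraries before PPx took part in listing the peaks, and its 4 libraries after PPx are those of the comparison above, so the values are set side by side and their overlap is no separate result. The median level of 675 listed promoters was 3.94 after and 3.20 before PPx, and 642 (95.1%) had a fold above 0, beside 97.1% of all peaks and 99.6% of the other promoters. By the authors' test 32 (4.74%) were gained, beside 7.45% of all 12767 peaks and 12.5% of the other promoters. None was lost, as in the whole table (0%). At an unadjusted p under 0.05, 173 (25.6%) were higher, beside 39.4% of all peaks and 54.8% of the other promoters, and 1 was lower, beside 0.0235% of all peaks. Both the gained share and the share higher at an unadjusted p were below those of all peaks. The median fold was 0.73 (middle 50% from 0.42 to 0.98), beside 0.84 in the other promoters and 0.83 over all peaks, with median implied SEs of 0.50 and 0.41 in the 2 promoter sets. Centred on the table's median, none of the 32 kept its call and the median fold of the set was -0.10.

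The 32 gained promoters were at 3.97 to 4.75 after and 1.85 to 3.53 before PPx. Arfip1, which binds Arf-like GTPases at the Golgi, had the lowest FDR, at 4.30 after and 2.10 before PPx in the authors' deposited table (log2 fold 2.20, implied SE 0.55, FDR 0.0230). Abcc5, an exporter of cyclic nucleotides, was at 4.62 after and 2.65 before PPx in the authors' deposited table (fold 1.97, FDR 0.0257). Gpkow, a spliceosome protein encoded on the X, was at 4.01 after and 1.85 before PPx in the authors' deposited table (fold 2.16, FDR 0.0258). These 3 promoters were called in 0 of 3 libraries before PPx. Their folds between genotypes after PPx were smaller, at 0.64, 0.70 and 0.76 in the authors' deposited table, with FDRs of 0.177, 0.133 and 0.143; the difference was not tested.

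Further gains fell at genes of varied role. Hat1 was at 4.26 after and 2.46 before PPx in the authors' deposited table (log2 fold 1.80, FDR 0.0282), and Utp14a at 4.65 after and 3.11 before (fold 1.54, FDR 0.0349). Pus3, which modifies transfer RNA, had 1.72 (FDR 0.0339) as its fold in the authors' deposited table, and Atg4c, a protease of autophagy, 1.43 (FDR 0.0349). The annotated start of Pus3 lies outside the peak that chose it, 930 bp from the centre of that peak. Ostm1, a partner of the lysosomal chloride transporter, had 1.58 (FDR 0.0397) in the authors' deposited table. Acyp2, an acylphosphatase, had 1.51 (FDR 0.0374) there and Eml3, a microtubule-binding protein, 1.50 (FDR 0.0386). Slc25a4, the mitochondrial ADP/ATP carrier, was the 1 gained of 12 solute carriers, with 1.28 (FDR 0.0467) in the authors' deposited table. Dusp4 narrowly missed the threshold, at 4.70 after and 3.56 before PPx in the authors' deposited table (fold 1.14, implied SE 0.41, FDR 0.0509). Among the gene lists, mitosis, DNA repair, SWI/SNF, ERBB-MAPK, insulin signalling and zinc finger genes had 0 gained, of 6, 3, 2, 4, 3 and 23 listed. Predicted, Rik, microRNA and small RNA genes had 9 gained of 119 listed, beside 7.45% of all peaks. Gpr19, with 1.18 (FDR 0.0463), was the 1 gained of 7 orphan and adhesion receptors in the authors' deposited table, and H1f4, with 1.26 (FDR 0.0490), the 1 gained of 4 histone genes.

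**Figure D5:**
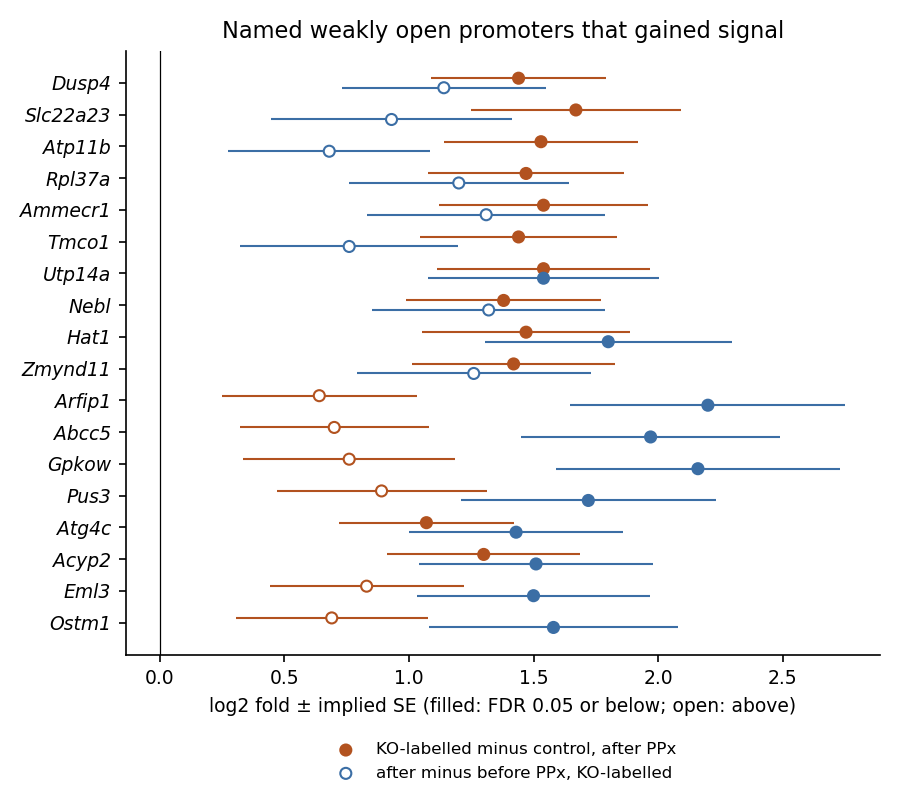
Log2 fold with its implied SE (horizontal axis) for the named weakly open promoters with the lowest FDRs, KO-labelled against control after PPx and after against before PPx in KO-labelled islets; filled points passed an FDR of 0.05. Dusp4 had folds of 1.44 and 1.14, and Arfip1 0.64 and 2.20; both comparisons use the same 4 KO-labelled libraries after PPx.

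PPx in control islets gave no call among these promoters. The 435 listed had median levels of 3.40 after and 3.14 before PPx and a median fold of 0.29, beside 0.14 in the other promoters and 0.16 over all 8070 peaks. None was gained or lost, as for all peaks (0% and 0%). The 4 libraries before PPx are those that chose the set for being low there, which by itself tilts these folds upward, so nothing is read from them. At an unadjusted p under 0.05, 14 (3.22%) were higher, beside 2.43% of all peaks, and 2 were lower, beside 0.0991%. Cdk6 was at 4.15 after and 3.25 before PPx in the authors' deposited table (log2 fold 0.90, unadjusted p = 0.0255, FDR 0.999). Gpr85, an orphan receptor, was at 4.28 after and 3.03 before in the authors' deposited table (fold 1.25), and Jak2 at 1.95 after and 3.31 before PPx (fold -1.35). Neither passed the FDR threshold.

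Genotype before PPx is the comparison that chose the set, and its values are given as a description. None of the 714 was gained or lost by the authors' test, beside 0.0128% and 0% of all 7826 peaks. At an unadjusted p under 0.05, 11 were higher and 1 was lower in KO-labelled islets, beside 0.843% and 2.3% of all peaks. The median fold was 0.17, against 0.03 in the other promoters and 0.00 over all peaks. Bub3 was at 4.43 in KO-labelled and 3.40 in control islets in the authors' deposited table, and it was called in 3 KO-labelled libraries and 1 control library. Dusp4 was at 3.88 in KO-labelled and 3.38 in control islets there, and Hat1 at 2.63 in KO-labelled and 3.14 in control islets.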

How the data were processed

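Tools named, per the submitters' processing notes, are cutadapt and BWA, MACS as well as DiffBind and ChIPseeker, with mm10 as the build and with no versions or settings. Each of 4 tables deposited by the authors holds log2 group means of normalised reads per peak, log2 folds, p-values and FDRs of a test the headers do not name, and counts of libraries in which a peak was called. Depth per library is unknown and values per library are not analysed here, so every test is the authors'; with 3 or 4 mice per group, precision is given as an implied standard error, the fold divided by the normal quantile of its p (below a fold of 0.1 or from p = 0.95, the median of 1 of 40 bins of level). Repeated rows were dropped, folds were signed so that a positive one is higher in KO-labelled or post-PPx islets, and steps were tested on simulated data (Python 3.11.15, pandas 2.3.3, scipy 1.17.1).

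Named genes were, for genotype after PPx and PPx in KO-labelled islets, the 10 gained with the lowest FDR, up to 4 of each of 38 gene lists, the extremes of level and of fold after PPx, without predicted genes; others were chosen after their values were seen. The set, the lists and the tests were chosen with earlier results of these data known. Alternatives were other thresholds, distances, overlaps, duplicates kept, FDR limits, adjustment and centring.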

Additional observations from a re-analysis of the deposited data

How the results depend on the processing

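No paired analysis was possible because the tables hold group means and the sample numbers are not shared between groups. For the same reason no library could be left out. A threshold of 3.0 or 4.0 gave 177 or 2068 promoters, of which 3 or 242 were gained after PPx in KO-labelled against control islets and 2 or 153 in KO-labelled islets after against before PPx. At an FDR of 0.01 these counts were 0 and 0, and at 0.1 they were 152 and 144. Adjusting all listed p by Benjamini-Hochberg gave 32 (27 of the 55) and 17 (all among the 32), beside 541 of all 13111 and 573 of all 12767 peaks. Many peaks of low level had a deposited FDR of 1. Its part in the difference from the deposited counts was not tested. Matching by identical start and end left 3 and 11 promoters to follow and 0 and 0 gained. Centring on the table's median gave 0 and 0 gained, 1 lost between genotypes after PPx, and median folds of 0.08 between genotypes after PPx and -0.10 in KO-labelled islets after against before PPx, the 1 reversal; the cause was not tested. The other 83 settings left counts within 1.5 times and medians within the median implied SE of a single peak, which is a wide margin. Under it medians of 0.35 to 0.81 counted as unchanged from 0.73 in KO-labelled islets after against before PPx. In control islets medians of 0.08 to 0.31 counted as unchanged from 0.29. Leaving out peaks under 2, an alternative chosen after seeing the data, was among the 83 settings. Many of the 83 were counts of 0 lost or called that stayed at 0, and some of these could not move. In control islets after against before PPx, for example, the lowest deposited FDR over all peaks was 0.619, so no FDR limit tried could add a call. Group means, unknown depth and levels near 10 reads per peak limit what could be called.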
